A study of Mus musculus with 8 samples.

Results

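The BMP pathway and the Id genes were followed in mouse dorsal skin through 10 genes chosen by name: the ligand genes Bmp2, Bmp4 and Bmp7, the antagonist gene Nog, the receptor gene Bmpr1a, the inhibitory SMAD genes Smad6 and Smad7, and the target genes Id1, Id2 and Id3. All 10 were found once each among the 18770 genes of the deposited table. They also passed the filter on low values, which asked for 3 or more normalized counts in 4 or more libraries and left 15964 genes to test. A normalized count is a read count divided by 1 size factor per library.

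Bone morphogenetic proteins (BMPs) are secreted ligands that bring type I and type II receptor kinases together. The receptors phosphorylate SMAD1, SMAD5 and SMAD9, which enter the nucleus with SMAD4 and switch on targets such as the Id genes, whose products bind E proteins and keep them off DNA. The pathway also acts in the hair cycle: its antagonists, Noggin among them, favour the passage from telogen, when follicles are at rest, to anagen, the growth phase.

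Messenger RNA was sequenced from 4 mice treated with alpinetin (AP), a plant flavonoid, and 4 vehicle control (VC) mice. All were wild-type male C57BL/6 mice of 7 to 8 weeks whose hair had been removed by depilation, which starts a new hair cycle. A volume of 20 µl was put on the back skin each day, which held AP at 3 mg/ml in 65% ethanol for the AP group and 65% ethanol alone for the VC group. RNA came from the D4 skin, meaning 4 days past depilation, after the epidermis that lies between follicles had been stripped off and dermis with follicles was left. The comparison asks whether BMP pathway transcripts differed with AP at this step from telogen to anagen.

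The libraries (named VC or AP with a number, as in the table) differed between groups in ways other than the genes of interest. Where all 4 values of a group are given, they follow the order of these numbers. Reads on the listed genes numbered 6454563 to 7264151 in VC and 8507783 to 11190113 in AP. Mitochondrially encoded genes took 54.3%, 44.9%, 42.1% and 52.3% of the reads in VC, against 11.1%, 7.85%, 5.32% and 10.3% in AP. Without them, VC libraries held 3080758 to 3762217 reads and AP libraries 7561598 to 10594787. A gene with 3 reads therefore stood at 4.10 to 5.63 normalized counts in VC and at 1.49 to 2.18 in AP. Of the 12 mitochondrially encoded genes tested, 10 fell in AP by limma, and all 12 by edgeR, DESeq2 and limma-voom, with a median log2 fold change of -3.38. The most abundant, mt-Co1, was not among the 10 (adjusted p = 0.180 by limma). It stood at 1564000 to 2888100 normalized counts in VC and 123190 to 284400 in AP, with no overlap. Without AP.2 or without AP.3 limma called 6 of the 12. Mitochondrial share and treatment cannot be told apart in this design.

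Markers of suprabasal keratinocytes, cells that the removal of the epidermis should have taken away, were present in every library. Their summed level was 7322, 14688, 10332 and 7029 normalized counts in VC, against 47789, 44958, 132850 and 183730 in AP. Of the 17 suprabasal markers, 13 rose in AP by limma, beside 6.33% of all genes. The most abundant, Krt10, stood at 1302 to 4085 normalized counts in VC and 15852 to 73321 in AP. AP.3 and AP.4 held the most, and without both of them 2 of the 17 markers passed the test. No marker of this list was without reads in either group. In whole tissue, fewer cells of a type and less RNA per cell cannot be told apart.

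Over all genes, limma called 1011 genes higher (6.33%) and 639 lower (4%) in AP at an adjusted p under 0.05, 10.3% in all. Those counts leaned on single libraries. They were 585 and 261 without VC.1, 398 and 155 without AP.2, 209 and 94 without AP.3, and 254 and 139 without AP.4. By that test none of the 10 BMP and Id genes was called, beside a share of 10.3% over all genes. At an unadjusted p under 0.05, limma picked 3 of the 10 (Bmp4, Id2 and Bmpr1a), which is close to the 30.3% of all genes that did so. The median log2 fold change of the 10 was -0.13, where it was 0.06 over all genes tested. Scaling by total reads moved the median of all genes to 0.90 and turned the signs of Bmp7, Id1, Id2, Id3 and Smad6, so directions are given for the deposited scaling. Tests on the recovered reads called members in the lower direction: Bmp4 with edgeR (4.46% of all genes were called lower) and with limma-voom (4.53%), and Bmp4 and Id2 with DESeq2 (8.55%). These tools called no member higher, beside shares of all genes of 6.28% with edgeR, 4.48% with limma-voom and 10.5% with DESeq2.

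**Figure D1:**
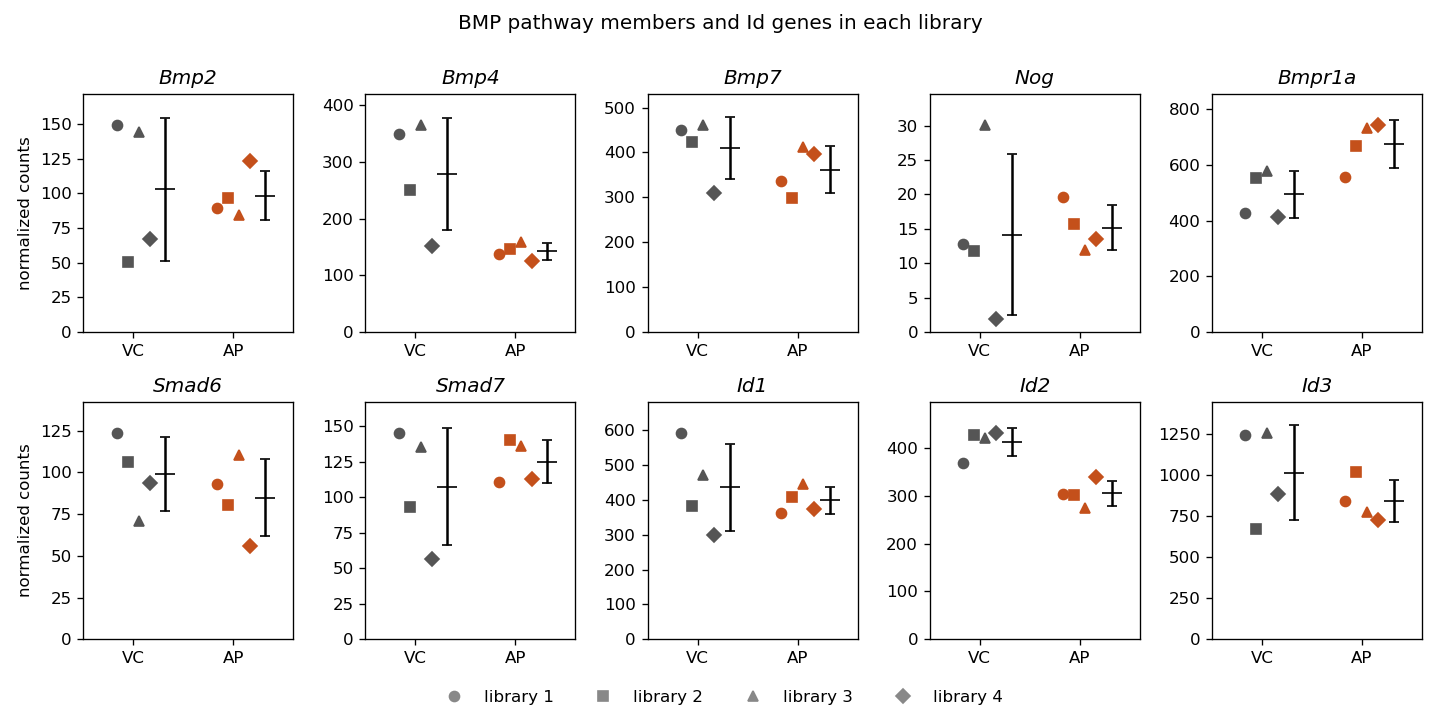
Normalized counts (vertical axis, starting at 0) of the 10 genes in the 4 VC and 4 AP libraries; each symbol is 1 library, and bars are the mean ± SD (n = 4). In the Id2 panel the AP libraries lie at 275 to 339, all below the VC libraries at 367 to 431, and in the other 9 panels the groups overlap.

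Among the ligands, Bmp4 had the largest difference. BMP4 is made in dermal cells, the dermal papilla included. The gene (ENSMUSG00000021835; GRCm38, chr14:46383520-46390669, minus strand) stood at 349.3, 249.7, 364.6 and 151.9 normalized counts in VC. In AP it stood at 138.5, 147.2, 158.4 and 124.5. VC.1, VC.2 and VC.3 lay above every AP library, while VC.4 lay among them, so the groups overlapped. The mean was 279 ± 98.8 (SD, n = 4) in VC and 142 ± 14.3 in AP. The log2 fold change, on the log2(value + 1) scale used throughout, was -0.89 (SE 0.27, 95% interval -1.48 to -0.31), with an adjusted p of 0.0536 by limma and an exact permutation p of 0.0571, two-sided. Without VC.4 the value was -1.16 with an adjusted p of 0.0177. With each other library left out it ran from -0.95 to -0.74, with adjusted p from 0.0767 (without VC.2) to 0.131 (without AP.4), and without both AP.3 and AP.4 the adjusted p was 0.286. DESeq2 gave -0.97 with an adjusted p of 0.0072, and over the 23 alternatives the adjusted p ran from 0.0072 to 0.948. The latter is from scaling by total reads, where the value was -0.03, or -0.93 relative to the median of all genes. Of the Bmp4 exons, 89 bases (3.96%) overlap Gm15217 on the opposite strand. That gene averaged 14.9 normalized counts in VC and 3.79 in AP, lower in every AP library than in every VC library. It had few reads, at 14, 5, 14 and 4 in VC and 7, 6, 8 and 4 in AP. Its AP values of 2.86 to 5.08 lay near the level of 3 reads in VC (4.10 to 5.63). The sources used here do not say whether counting used strand.

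Bmp7, a ligand of the same family with a broader expression in epithelium and mesenchyme, stood at 309.4 to 460.2 normalized counts in VC and 298.7 to 411.6 in AP. Its log2 difference was -0.18 (SE 0.18, adjusted p = 0.531 by limma), and the groups overlapped over most of their range. With single libraries left out the value ran from -0.31 (without VC.4) to -0.09 (without AP.2).

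Bmp2, a ligand of the hair follicle and of subcutaneous fat, varied more within VC than between groups. It stood at 149.2, 50.2, 144.7 and 67.5 normalized counts in VC, so that VC.1 and VC.3 were high and VC.2 and VC.4 low. AP libraries lay between these pairs, at 84.2 to 123.7. On the log2 scale the change was 0.07 (SE 0.36, adjusted p = 0.913 by limma), and its sign turned with edgeR and DESeq2 (both -0.07).

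Nog encodes Noggin, which binds BMP2 and BMP4 and keeps them from their receptors. It stood at 12.7, 11.8, 30.04 and 1.88 normalized counts in VC, against 19.6, 15.6, 11.96 and 13.6 in AP. The VC.4 value is 1 read and lies under the level of 3 reads. The log2 fold change was 0.51 with a 95% interval of -0.96 to 1.99 (adjusted p = 0.642 by limma), and no difference was detected in either direction. It was 0.06 with edgeR and 0.07 with DESeq2. Without VC.4 the limma value was -0.14.

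Bmpr1a encodes a type I BMP receptor (ENSMUSG00000021796; chr14:34410734-34503341, minus strand). It stood at 429.3, 554.2, 580.3 and 414.4 normalized counts in VC. In AP it stood at 555.6, 669.7, 733.9 and 742.4. AP.2, AP.3 and AP.4 lay above all VC libraries, and AP.1 lay below VC.3. The log2 fold change was 0.46 (SE 0.17, 95% interval 0.08 to 0.83), with an adjusted p of 0.0991 by limma and an exact permutation p of 0.0571. With a trend on transcript length removed, the value was 0.14 (adjusted p = 0.598). Over the 23 alternatives the adjusted p ran from 0.0016 to 0.598. The former is from scaling by total reads, where the value was 1.32, or 0.42 relative to the median of all genes. All other alternatives gave 0.0691 (without AP.1) or more. Of its exons, 290 bases (4.57%) overlap the antisense gene Gm17110, which averaged 15.98 normalized counts in VC and 40.3 in AP. Without strand, the reads of both cannot be told apart there.

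The inhibitory SMADs are induced by BMP signalling and act back on the receptors. Smad6 stood at 71.0 to 123.7 normalized counts in VC and 55.8 to 110.6 in AP, a log2 fold change of -0.23 with an SE of 0.28 (adjusted p = 0.614 by limma). With single libraries left out it ran from -0.38 (without VC.3) to -0.04 (without AP.4). Smad7, which also restrains TGF-beta signalling, stood at 145.5, 93.1, 135.2 and 56.3 in VC. AP libraries held 111.0 to 140.7, inside that range, and the log2 fold change was 0.30 (SE 0.30, adjusted p = 0.525 by limma). It was 0.02 without VC.4 and 0.48 without VC.1, and 0.13 with the length trend removed.

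Id2 was the one gene of the 10 whose groups did not overlap, where 19.2% of all genes tested had groups apart. ID2 is a helix-loop-helix protein without a DNA-binding region (gene ENSMUSG00000020644; chr12:25093799-25097140, minus strand). The gene stood at 367.5, 425.6, 420.6 and 431.3 normalized counts in VC, and at 303.9, 300.3, 275.0 and 339.0 in AP. Every AP library lay below every VC library. VC.1 was the lowest of its group, and AP.4 the highest of its own. The mean was 411 ± 29.5 (SD, n = 4) in VC and 305 ± 26.3 in AP, the smallest spread within VC of the 10 genes at 7.17% of the mean. The log2 fold change was -0.43 (SE 0.15, 95% interval -0.75 to -0.11), with an adjusted p of 0.0757 by limma. The exact permutation p was 0.0286, the smallest that 70 assignments allow. DESeq2 gave -0.44 with an adjusted p of 0.0269, over a range of 0.0269 to 0.340 among the 23 alternatives. With scaling by total reads the Id2 value was 0.44, or -0.46 relative to the median of all genes.

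Id1 and Id3, commonly used as readouts of BMP signalling, were not called by limma, edgeR, DESeq2 or limma-voom. Id1 stood at 593.0, 381.3, 471.1 and 300.0 normalized counts in VC and at 363.4, 409.8, 446.9 and 374.1 in AP. The AP values lay inside the VC range. Its log2 fold change was -0.09 (SE 0.21, 95% interval -0.54 to 0.36, adjusted p = 0.799 by limma), and the sign turned without VC.1 (0.07) and with the length trend removed (0.18). Id3 stood at 1242, 669.4, 1255 and 883.1 in VC and at 842.1, 1017, 773.8 and 721.7 in AP. Again the AP values lay inside the VC range, with a log2 fold change of -0.24 (SE 0.21, 95% interval -0.70 to 0.23, adjusted p = 0.483 by limma), and 0.03 with the length trend removed. With single libraries left out the Id3 value ran from -0.42 (without VC.2) to -0.12 (without VC.3).

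Levels of different genes were set side by side as normalized counts per kb of merged exons. In VC the order ran from Id3 (565 ± 160, SD, n = 4) through Id1 (376 ± 108), Id2 (169 ± 12.1), Bmp4 (124 ± 43.9), Bmp7 (102 ± 17.2) and Bmpr1a (77.9 ± 13.4). Smad6 (30.8 ± 6.92), Bmp2 (28.9 ± 14.5), Smad7 (23.8 ± 9.07) and Nog (8.33 ± 6.90) followed. Only the steps from Id1 to Id2 and from Bmpr1a to Smad6 separated neighbours without overlap of their libraries. In AP the order was Id3 (468 ± 71.8), Id1 (344 ± 32.7), Id2 (125 ± 10.8), Bmpr1a (106 ± 13.6), Bmp7 (89.8 ± 13.04) and Bmp4 (63.2 ± 6.38). Thus Bmp4 held the fourth place in VC and the sixth in AP, and in AP its libraries did not overlap those of Bmp7 or Smad7 next to it. Smad7 (27.7 ± 3.40), Bmp2 (27.7 ± 4.96) and Smad6 (26.5 ± 7.19) overlapped one another in AP, and Nog (8.96 ± 1.94) was again the last.

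VC.4 was the lowest VC library for 6 of them (Bmp4, Bmp7, Nog, Bmpr1a, Id1 and Smad7), and VC.1 or VC.3 was the highest for 9. The spread was wider relative to the mean in VC than in AP for 8 of the 10: the SD of Id1 was 28.8% of the mean in VC and 9.50% in AP, and that of Bmp2 49.9% and 17.9%. For Id2 and Smad6 it was wider in AP. The VC libraries also had fewer reads for most of these genes: Bmp2 had 34 to 106 reads in VC and 123 to 179 in AP. Read ranges overlapped for Bmp4 (81 to 267 in VC and 174 to 318 in AP) and for Nog (1 to 22 and 19 to 29). The part of depth in this spread was not tested.

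For 3 genes, those most like them over the 8 libraries, after each group was centred on its mean, were named as a description. They came from 11256 other genes with a mean of at least 50 normalized counts. For Id1 these were Tgfbr1 (r = 0.98), Rnf40 (r = 0.98) and Inafm2 (r = 0.97). For Id3 they were Flt4 (r = 0.99), Ypel2 (r = 0.98) and Xylt1 (r = 0.98). For Bmp4 they were Atrn (r = 0.99), Lins1 (r = 0.98) and Wnt10b (r = 0.98). These genes were picked for having the highest r of 11256 over only 8 libraries, so high values arise by selection. The r also leaves out the difference between groups. Flt4 had a log2 fold change of 2.77 (adjusted p = 0.0107 by limma), where that of Id3 was -0.24.

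The wider pathway was read from 6 lists that hold 77 genes in all, of which 71 were in the table and 68 were tested. Of these, 4 rose and 1 fell by limma, 7.35% beside 10.3% over all genes. DESeq2 called 11 higher and 4 lower (22.1%, beside 19.1% over all genes), edgeR 4 and 2 (8.82% beside 10.7%) and limma-voom 4 and 3 (10.3% beside 9.01%). The 14 ligands had 9 genes in the table and 7 tested, and limma called none of them. Bmp4 had an unadjusted p under 0.05, as did 30.3% of all genes. It was called lower by edgeR (4.46% over all genes), DESeq2 (8.55%) and limma-voom (4.53%). The ligands had a median log2 fold change of 0.07. In each list the most abundant genes are those with the highest mean normalized count, here Bmp7, Bmp4 and Bmp2.

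**Figure D2:**
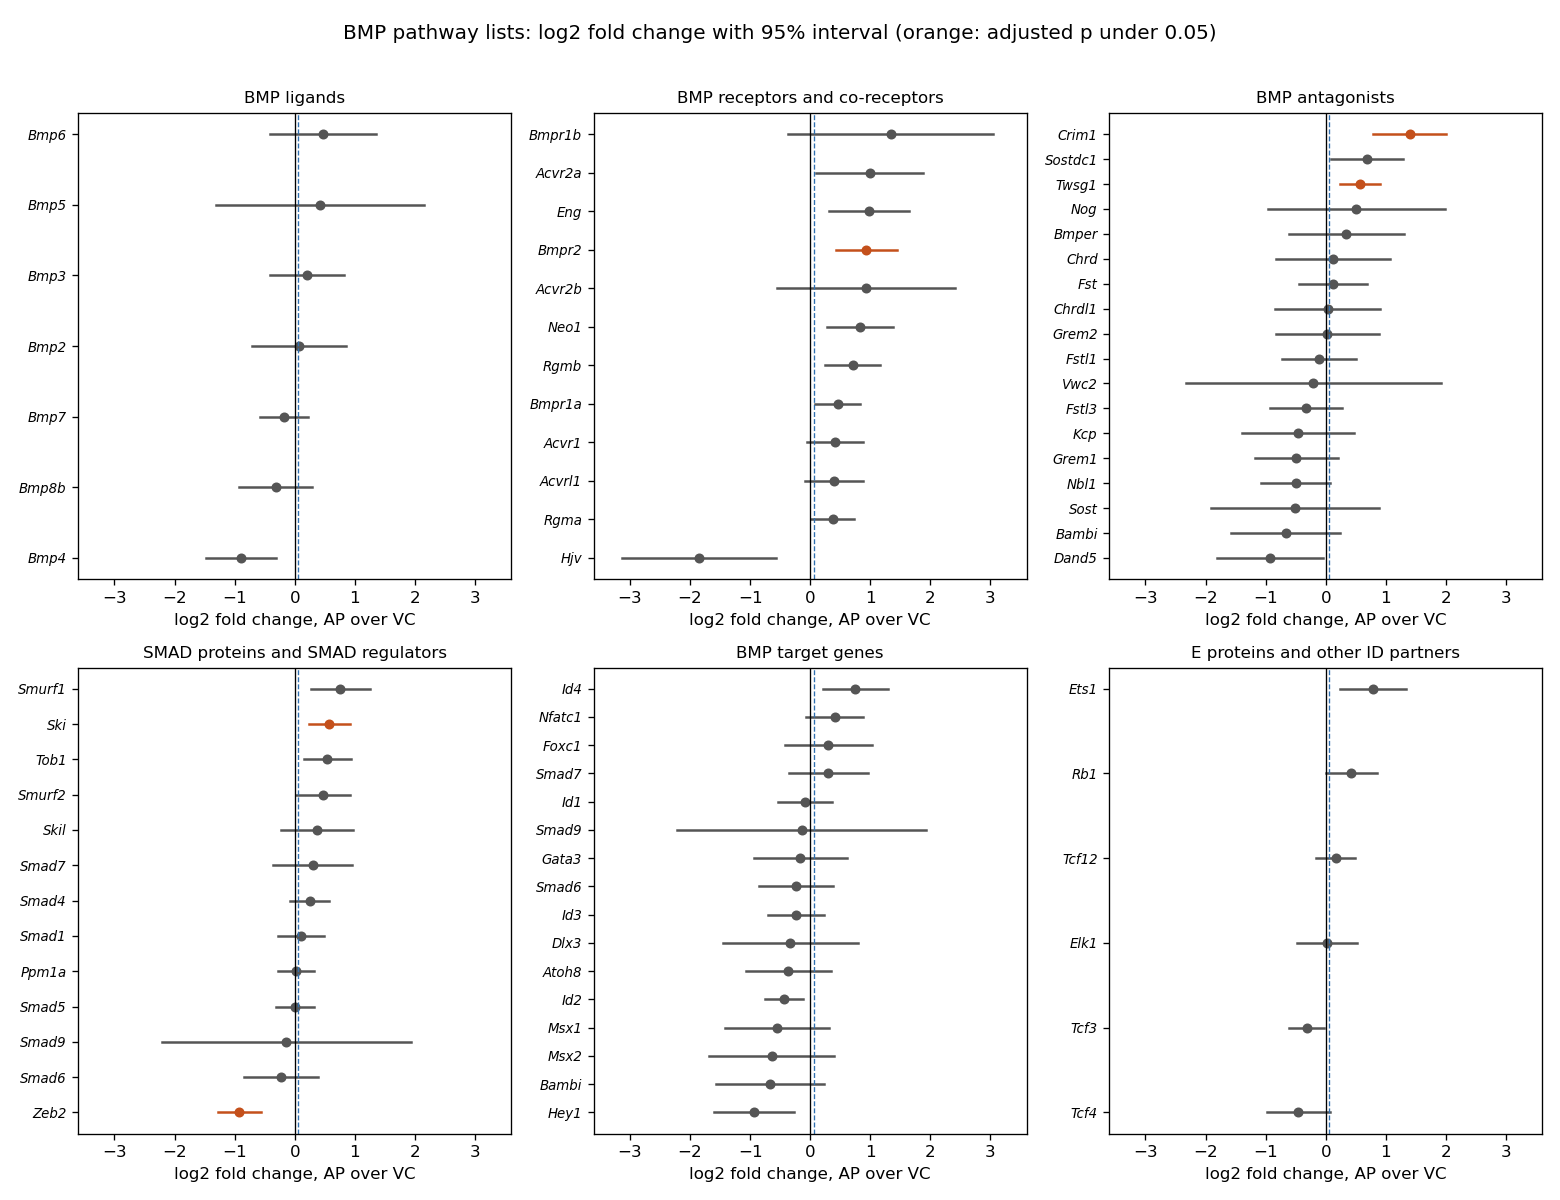
Log2 fold change of AP over VC (horizontal axis) with its 95% interval by limma for every tested gene of 6 BMP pathway lists; orange marks an adjusted p under 0.05, the solid line 0 and the dashed line the median of all genes, 0.06. Bmpr2, Twsg1, Crim1 and Ski lie to the right in orange and Zeb2 to the left.

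All 12 receptors and co-receptors were tested. The median log2 fold change was 0.77, 11 of the 12 values were above 0 (53.5% over all genes), and 8 of the 12 had an unadjusted p under 0.05 (7 higher and 1 lower), where 30.3% of all genes did. After adjustment limma called 1 gene higher, as did edgeR (6.28% over all genes). DESeq2 called 4 higher (Eng, Neo1, Rgmb and Bmpr2; 10.5% over all genes), and limma-voom called Bmpr2 higher (4.48%) and Hjv lower (4.53%). Bmpr2, the gene called by limma, encodes the type II receptor that pairs with BMPR1A. It stood at 411.1, 413.8, 456.1 and 223.1 normalized counts in VC and at 567.2, 865.4, 726.9 and 645.9 in AP, every AP library above every VC library. On the log2 scale it was higher by 0.93, with an SE of 0.23 (adjusted p = 0.0314 by limma). The call was lost without VC.1 (adjusted p = 0.0531), AP.2 (0.0875), AP.3 (0.0925) or AP.4 (0.0723), without the intensity trend (0.0816) and without both AP.3 and AP.4 (0.212). It was also lost with the length trend removed, where the value was 0.37 (adjusted p = 0.214). Eng, which encodes the endothelial co-receptor endoglin, was the most abundant of the list. Its groups did not overlap, with 342.8 to 576.2 in VC and 625.8 to 1715 in AP, and its log2 fold change was 0.98 (adjusted p = 0.0584 by limma).

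Of 10 endothelial markers, limma called 3 higher (Pecam1, Cdh5 and Flt1; 6.33% over all genes), with a median log2 fold change of 1.41. The same 3 were called by edgeR (6.28% over all genes) and limma-voom (4.48%), and 6 by DESeq2 (10.5%), all higher. Egfl7 was the 1 value below 0 (-0.40, adjusted p = 0.291 by limma). Their summed level was 1457, 1499, 2188 and 2574 normalized counts in VC and 3637, 7564, 3032 and 3305 in AP. Pecam1, the most abundant, stood at 304.4 to 546.2 in VC and 825.6 to 2244 in AP, and no marker was without reads. Without VC.1, 1 endothelial marker was called, and without VC.4 there were 6. The part of endothelial content in the receptor values was not tested.

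Of the 20 antagonists and modulators, 19 were in the table and 18 tested, with a median log2 fold change of -0.04 and 2 called higher, where 6.33% of all genes were. At an unadjusted p under 0.05 there were 4 of the 18, where 30.3% of all genes passed. Crim1, a transmembrane protein that binds BMPs, stood at 287.4, 187.7, 208.9 and 116.3 normalized counts in VC and at 394.6, 748.9, 485.8 and 446.3 in AP. In log2 terms the fold change was 1.40, with an SE of 0.28 (adjusted p = 0.0166 by limma), and the call was lost without AP.3 (adjusted p = 0.0502), without both AP.3 and AP.4 (0.127) and without the intensity trend (0.0511). Twsg1, a secreted partner of chordin, stood at 378.4 to 543.5 in VC and 697.5 to 743.4 in AP, a log2 fold change of 0.57 with an SE of 0.15 (adjusted p = 0.0381 by limma). That call stayed without VC.3 but was lost without any other single library, with adjusted p from 0.0510 to 0.103. It was also lost without both AP.3 and AP.4 (0.244), without the intensity trend (0.0881) and with the length trend removed (0.0830). The most abundant genes of the list, Fstl1 (log2 fold change -0.12, adjusted p = 0.813) and Nbl1 (-0.50, adjusted p = 0.213), were not called. With single libraries left out the Nbl1 value ran from -0.66 (without AP.1) to -0.26 (without VC.4).

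The 13 SMAD proteins and regulators were all tested, with a median log2 fold change of 0.25. Limma, edgeR and limma-voom called 2 of the 13, Zeb2 and Ski, beside 10.3%, 10.7% and 9.01% over all genes, and DESeq2 also called Tob1 and Smurf1 higher (19.1% over all genes). At an unadjusted p under 0.05 limma picked 5 of the 13, where 30.3% of all genes passed. Zeb2, a zinc finger repressor that binds SMADs, fell. It stood at 1039, 809.8, 845.2 and 1163 normalized counts in VC and at 554.1, 555.4, 452.4 and 457.8 in AP. All AP libraries lay far below the VC libraries, the log2 fold change was -0.92 (SE 0.16, adjusted p = 0.0108 by limma), and the call stayed without each single library. Scaling by total reads reduced the Zeb2 value to -0.05 against a median of 0.90, and without both AP.3 and AP.4 the adjusted p was 0.149. With the length trend removed the value was -1.39 (adjusted p = 0.0062 by limma). Ski, a SMAD co-repressor, rose, with VC libraries at 662.0 to 868.4 and AP libraries at 941.3 to 1304, a log2 fold change of 0.58 with an SE of 0.15 (adjusted p = 0.0386 by limma). That call, too, stayed without VC.3 only, with adjusted p from 0.0562 to 0.109 without each of the others. It was also lost with the length trend removed, where the value was 0.29 (adjusted p = 0.197), with upper-quartile scaling (0.0504), with reads drawn down (0.0592), without the intensity trend (0.0908) and without both AP.3 and AP.4 (0.165). Ppm1a, a phosphatase of SMADs, had a log2 fold change of 0.02 (adjusted p = 0.940).

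Limma called none of the 16 BMP target genes, and 3 had an unadjusted p under 0.05, where 30.3% of all genes did. DESeq2 called 1 higher (Id4; 10.5% over all genes) and 2 lower (Id2 and Hey1; 8.55%), and edgeR and limma-voom none. Their median log2 fold change was -0.23, and 12 of the 16 values were below 0, as were 46.5% over all genes. The most abundant were Id3 and the transcription factor genes Gata3 (-0.16, adjusted p = 0.789) and Dlx3 (-0.33, adjusted p = 0.699), both active in the hair follicle. With single libraries left out the Dlx3 value ran from -0.88 (without VC.4) to -0.03 (without VC.3). Summed normalized counts of the list were 6576, 4082, 6367 and 3233 in VC and 3575, 4666, 4917 and 3819 in AP. VC.1 and VC.3 were high here as they were for Bmp2, Bmp4 and Id3, though Id3 is itself part of this sum. Hair matrix and shaft markers, a list that shares Dlx3 and Msx2 with the targets, were summed at 6754, 4828, 6916 and 1659 in VC and 3853, 17478, 18250 and 6020 in AP, with Krt71 the most abundant and 1 of 12 called higher by limma and limma-voom (Tchh), 3 by edgeR and 4 by DESeq2. Limma called 4 without AP.1. The shares of all genes called higher were 6.33% by limma, 4.48% by limma-voom, 6.28% by edgeR and 10.5% by DESeq2.

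The 6 E proteins and other ID partners had a median log2 fold change of 0.10, and limma called none, with 2 at an unadjusted p under 0.05 (30.3% over all genes). DESeq2 called 1 (Ets1, higher; 10.5% over all genes), and edgeR and limma-voom none. E proteins are the DNA-binding partners that ID proteins sequester. Tcf4 (log2 fold change -0.46, adjusted p = 0.218), Tcf3 (-0.32, adjusted p = 0.133) and Tcf12 (0.17, adjusted p = 0.466) were the most abundant. Without VC.2 the Tcf4 value was -0.69 (adjusted p = 0.0490), and with the length trend removed it was -0.90 (adjusted p = 0.0540). The other way, it was -0.33 without VC.1 (adjusted p = 0.413 by limma) and -0.27 without both AP.3 and AP.4 (adjusted p = 0.699 by limma). Tcf3 stood at 691.6 to 781.9 normalized counts in VC and 544.0 to 627.8 in AP, with no overlap. Ets1 and Rb1 had groups apart in the other direction, with AP above VC, where 19.2% of all genes had groups apart.

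Of 12 dermal papilla markers, limma called 4 lower (Alx4, Sox2, Rspo3 and Wif1; 4% over all genes), with a median log2 fold change of -0.92. The same 4 were called by edgeR (4.46% over all genes), DESeq2 (8.55%) and limma-voom (4.53%). Sostdc1 was the 1 value above 0 (0.68, adjusted p = 0.122 by limma). Their summed level was 1859, 2112, 2941 and 1549 normalized counts in VC and 1138, 1109, 1936 and 1142 in AP. Wif1, the most abundant, stood at 316.5 to 518.9 in VC and 122.3 to 346.3 in AP, and no marker was without reads. The count of 4 was 2 without VC.2 or VC.3, 1 without AP.2 and 0 without AP.4. The part of dermal papilla content in the Bmp4 values was not tested.

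Other cell types were read from further marker lists, none of which held a gene without reads in a group. The shares over all genes were 6.33% higher and 4% lower by limma, and 30.3% at an unadjusted p under 0.05. They were 10.5% higher and 8.55% lower by DESeq2, 6.28% and 4.46% by edgeR, and 4.48% and 4.53% by limma-voom. Of 10 basal keratinocyte markers 5 rose, but not Krt14, the most abundant, and 3 of 8 smooth muscle and pericyte markers rose. Des, the most abundant of the latter, was not among them and had a log2 fold change of -1.33 (adjusted p = 0.105). Of 7 Schwann cell markers 2 fell (Mbp, the most abundant, among them), and of 5 red blood cell markers 1 rose (Hbb-bs, with 1 other called lower by DESeq2). Of 10 leukocyte markers 1 rose, while 7 of the 10 values were below 0, and DESeq2 called 2 higher and 2 lower. Lyz2, the most abundant of them, was called lower by DESeq2 but not by limma (-1.08, adjusted p = 0.0786). Of 10 skeletal muscle markers limma and limma-voom called 1 lower (not Acta1, the most abundant), and edgeR and DESeq2 none. Limma called none of the 10 hair follicle stem cell markers (Krt15 the most abundant, 2 at an unadjusted p under 0.05) and none of the 10 fibroblast markers (Col1a1, 3). It also called none of the 9 adipocyte markers (Cfd, 2) and none of the 9 sebaceous gland markers (Fasn, 1). Of these 4 lists, DESeq2 called 2 stem cell markers and 1 fibroblast marker lower and 1 sebaceous gland marker higher, while edgeR and limma-voom each called 1 stem cell marker lower. Counts also changed with single libraries. Skeletal muscle went to 10 without AP.1 and to 0 without any other library. Basal keratinocytes went to 2 without VC.1, VC.4, AP.3 or AP.4 and to 3 without AP.2. Smooth muscle and pericytes went to 1 without VC.1, AP.2 or AP.4, and Schwann cells to 1 without VC.2, VC.4, AP.2, AP.3 or AP.4. Leukocytes went to 2 without AP.1 and 0 without AP.3 or AP.4, and red blood cells to 0 without VC.1, AP.2 or AP.4.

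Promoters are shown for the 3 members with the lowest p, Bmp4, Id2 and Bmpr1a, so that the regulatory letters can be read beside the values. RefSeq windows of GRCm38.p6 were at hand for 5 of the 10 genes (Bmp4, Bmpr1a, Id2, Id3 and Smad6). The 250 bases before the RefSeq start of each gene were searched on both strands for short motifs. For Id2, Bmpr1a and Id3 that start lies inside the annotated gene, and distances are counted from it. The motifs were GGCGCC, the GC-rich element of SMAD1 and SMAD5, CAGAC, the SMAD4 box, and CANNTG, the E-box bound by E proteins. Of 32851 promoters, 9.59% held GGCGCC, 42.2% CAGAC and 66.2% CANNTG. Among the 5 genes, 2 held GGCGCC (Id2 and Bmpr1a), 1 held CAGAC (Id3, at 167 and 68 bases before the start) and 2 held CANNTG (Id2 and Bmp4). The whole Id3 window, with its CAGAC matches, lies within annotated exons of Id3 and not upstream of the annotated gene. Stretches are printed as far as they lie outside annotated exons, 5′ to 3′ on the minus strand, with the motifs in capitals. They are chr14:46390670-46390919 for Bmp4, upstream of the annotated gene, and chr12:25096254-25096342 for Id2 and chr14:34502688-34502796 for Bmpr1a, both within the annotated gene but outside its exons. A match is only a run of letters.
Bmp4: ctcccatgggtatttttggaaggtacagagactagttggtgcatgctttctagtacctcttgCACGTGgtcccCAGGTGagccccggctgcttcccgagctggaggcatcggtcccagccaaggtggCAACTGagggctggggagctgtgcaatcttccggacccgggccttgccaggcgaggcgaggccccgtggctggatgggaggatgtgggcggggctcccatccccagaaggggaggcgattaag
Id2: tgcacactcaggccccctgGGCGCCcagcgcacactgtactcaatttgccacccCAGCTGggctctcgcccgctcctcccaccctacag
Bmpr1a: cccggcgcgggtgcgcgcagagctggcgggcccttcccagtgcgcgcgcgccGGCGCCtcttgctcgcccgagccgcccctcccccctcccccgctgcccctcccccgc
Bmp4 held 3 E-boxes, at 188, 177 and 123 bases before the start. Id2 held GGCGCC at 231 and an E-box at 196 bases before it, and Bmpr1a held GGCGCC at 198.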

How the data were processed

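Reads were cleaned, aligned to mm10 with STAR, counted per gene with featureCounts (the submitters' processing notes also name HTSeq) and normalized with DESeq2 by the authors, with versions not given in the sources used here. The deposited per-library values are a signal, namely counts of reads after division by 1 size factor per library. All 150160 values were whole multiples of 1 step per library within 0.001 reads, so reads were recovered. The table also holds the authors' own fold changes, p-values and adjusted p-values, which were not used. Columns could be tied to groups but not to single mice.

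Values were tested with limma 3.58.1 (R 4.3.3) with an intensity trend on log2(value + 1), over genes that reached 3 normalized counts in 4 or more libraries. Benjamini-Hochberg adjustment ran over these 15964 genes, which were called at an adjusted p under 0.05. Single genes were also compared by a two-sided exact permutation test over 70 assignments. edgeR 4.0.16, which called 1003 genes higher and 712 lower, DESeq2 1.42.0 and limma-voom were run on the recovered reads. The steps were tested on simulated data. Other alternatives were pseudocounts of 0.5 and 5, other filters and scalings, no intensity trend and removal of a length trend. A further alternative drew 3080758 reads from each library, with the mitochondrially encoded genes left out. Each library was also left out in turn, and AP.3 and AP.4 together.

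Members and lists were chosen with earlier results of these data known. Named genes are the 10 members, for each pathway list those called (where limma called none, those of the other tools) and the 3 most abundant, for each marker list the most abundant, and the 3 most like Id1, Id3 and Bmp4; the called markers named and Hjv, Bmp8a, Neo1, Rgmb, Tob1, Smurf1, Rb1, Msx2, Egfl7, Sostdc1 and the overlapping genes were chosen after their values were seen. Coordinates are from GENCODE M21, which held 18766 of the 18770 identifiers. Promoters are from RefSeq. Intervals on reads were not computed, and the level of 3 reads covers counting error only.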

Additional observations from a re-analysis of the deposited data

Results flagged for a closer look

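In each group of 4 libraries, the library at either end was compared with the nearest of the others. Of 98 such groups looked at, 5 had 1 library far from the rest, and chance gives about 1 in 20. In VC, Id2 was lower in VC.1 (367.5 normalized counts) than in the other libraries (420.6 to 431.3), a gap of 0.832 of the group's range. In AP, Tcf3 was lower in AP.1 (544.0) than elsewhere (617.9 to 627.8), with a gap of 0.882. The summed dermal papilla markers were higher in AP.3 (1936) than in the other AP libraries (1109 to 1142), with a gap of 0.960. The summed endothelial markers were higher in AP.2 (7564) than in the others (3032 to 3637), with a gap of 0.866. The summed skeletal muscle markers were higher in AP.1 (85195) than in the others (6558 to 13830), with a gap of 0.908.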

How the results depend on the processing

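Among 23 alternatives, 17 called none of the 10 members. Members called lower numbered 1 with edgeR, limma-voom and upper-quartile scaling, and 2 with DESeq2. With each library left out they numbered 0 to 1, the 1 being Bmp4 without VC.4. Scaling by total reads, which includes the mitochondrial reads, called 5 members higher (Bmp7, Bmpr1a, Id1, Id3 and Smad7) and moved the median of all genes to 0.90. It also called most of the 15964 genes tested higher, with their number given below.

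Genes called higher and lower numbered 1677 and 1362 with DESeq2, 8657 and 70 with scaling by total reads, and 376 and 216 without the intensity trend. They numbered 20 and 10 without AP.3 and AP.4, and 580 and 531 with the length trend removed. With each library left out, 209 to 1082 were called higher and 94 to 817 lower.

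Signs turned with scaling by total reads for Bmp7 (0.69), Id1 (0.78), Id2 (0.44), Id3 (0.63), Smad6 (0.63), Fstl1 (0.75), Nbl1 (0.37), Gata3 (0.71), Dlx3 (0.54), Tcf4 (0.41) and Tcf3 (0.55). Relative to the median of all genes, the members among them lay at -0.21 for Bmp7, -0.12 for Id1, -0.46 for Id2, -0.27 for Id3 and -0.27 for Smad6. With the length trend removed they turned for Bmp2 (-0.015), Id1 (0.18), Id3 (0.027), Ppm1a (-0.39) and Tcf12 (-0.17). Bmp2 turned with edgeR (-0.069) and DESeq2 (-0.066), Ppm1a with upper-quartile scaling (-0.033), and Fstl1 without AP.3 and AP.4 (0.31). With each library left out, log2 fold changes ran from -0.22 to 0.30 for Bmp2, -0.14 to 1.001 for Nog, -0.25 to 0.072 for Id1, -0.29 to 0.096 for Fstl1, -0.032 to 0.078 for Ppm1a and -0.54 to 0.085 for Gata3. The cause of these changes was not tested.

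No paired analysis was possible because sample titles share no number between groups and the column numbers only name libraries. Of the 10 members, Nog had the fewest reads, with 1 to 22 reads in VC.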

Other observations

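Bmp8a, a ligand gene that did not pass the filter, had no reads in any VC library. It stood at 0.73, 16.7, 17.4 and 5.01 normalized counts in AP. A gene with 3 reads would stand at 4.10 to 5.63 in VC, so AP.1 lies under that level and AP.4 near it, while AP.2 and AP.3 lie above. Bmp8a was chosen after its values were seen.

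Hjv encodes hemojuvelin, a BMP co-receptor made in skeletal muscle and liver. It stood at 252.9, 266.0, 168.0 and 286.9 normalized counts in VC and at 248.8, 54.5, 18.9 and 69.4 in AP. AP.1 lay among the VC libraries and the other AP libraries below all of them. The log2 fold change was -1.85 (SE 0.58, adjusted p = 0.0625 by limma), and -2.49 without AP.1 (adjusted p = 0.0060, over a range of 0.0060 to 0.369 among the 23 alternatives). Summed skeletal muscle markers put the AP libraries in the same order, but not the VC libraries. The sum was 58125, 86135, 44144 and 46289 in VC and 85195, 11020, 6558 and 13830 in AP, 10 of 10 were below 0 in log2 fold change, and 10 were called lower without AP.1. The part of muscle content in the Hjv values was not tested. Hjv was chosen after its values were seen.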
